A study of Mus musculus with 12 samples.

Results

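The genes described here are 34 interferon-stimulated and antigen processing genes, which were taken from a list of names drawn up with earlier results of these data known, and all 34 were found among the 55401 genes of the deposited table. Interferons are secreted signals that bind receptors on the cell surface and act through JAK kinases on transcription factors, STAT2 and IRF9 among them. These factors bind a DNA element called the interferon-stimulated response element (ISRE) and switch on antiviral genes, while interferon gamma acts mainly through the gamma-activated site (GAS). In epithelia, many of these genes are also transcribed at a low, tonic level when no infection is present, and some of them encode the immunoproteasome and the peptide transporter that supply MHC class I.

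RNA was sequenced from 12 dishes of mouse airway organoids. These are spheres of epithelium grown in a basement membrane extract from airway epithelial cells of digested adult C57BL/6J lungs. Each dish held 45 organoids. In the 6 ablation dishes, 10 neighbouring cells of each organoid were removed with a femtosecond laser and the organoids were harvested 4.5 h later, whereas no cell was ablated in the 6 control dishes. The medium was exchanged for plain FluoroBrite DMEM before the treatment. Organoids of both groups were lentivirally transduced with a Histone2A-mCherry fusion under the p63 promoter, which drives it mainly in basal cells, and all RNA was isolated in a single run. The number of mice and of transductions behind the dishes is not given in the sources used here, so p-values measure the spread between these dishes. Pairs of 1 ablation and 1 control dish shared passage, culture day and date in their labels. Pair 1 was labelled passage P2+14 and day 14, pair 3 P2+14 and day 20, pair 4 P2+15 and day 14, pair 5 P2+15 and day 15, pair 6 P2+16 and day 18, and pair 7 P2+16 and day 19. Pairs 1, 3 and 5 and pairs 4, 6 and 7 carried separate runs of library numbers, called library set 1 and library set 2 below. The titles of control dishes 4, 6 and 7 name ablation, but their treatment label is that of a control, and this label was followed.

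Values are read counts divided by the size factor of each library (normalized counts), and they summed to between 27297950 and 28504390 per dish. Whole reads could be recovered for 9 dishes and ranged from 23631212 in control 7, the shallowest, to 29775699 in control 5. Markers of the labelled cell type were abundant. Krt5, a basal cell keratin, averaged 276858 normalized counts over the 12 dishes, and Epcam, an epithelial adhesion molecule, averaged 12441. Among 14 leukocyte markers, Adgre1, Tyrobp, Nkg7 and Siglech were at 0 in all dishes, and Cd68 and Itgam, the most abundant by their means, did not exceed 158 and 185 normalized counts. In pairs 1, 3, 4, 5, 6 and 7, the summed list reached 243, 222, 356, 303, 312 and 379.7 in the control and 229, 215, 274, 291, 366 and 306 in the ablation dish. In whole dishes, fewer cells of a type and less RNA per cell cannot be told apart.

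One library stood apart for these genes. Control 7 was the highest of the 12 dishes for 25 of the 34 genes, while it was the highest for 6.1% of the 13792 genes tested. In 6 of the 34, its value was over 1.5 times that of the next dish, which was the case for 0.102% of all genes tested, or 14 genes. The 34 genes lay 0.74 higher in control 7 than their mean over all dishes on the log2 scale (mean over genes), against 0.25 in control 4, 0.21 in control 3 and -0.63 in control 1. The directions of the 34 genes are therefore also given without it, or without pair 7 where a response within pairs is compared.

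**Figure D1:**
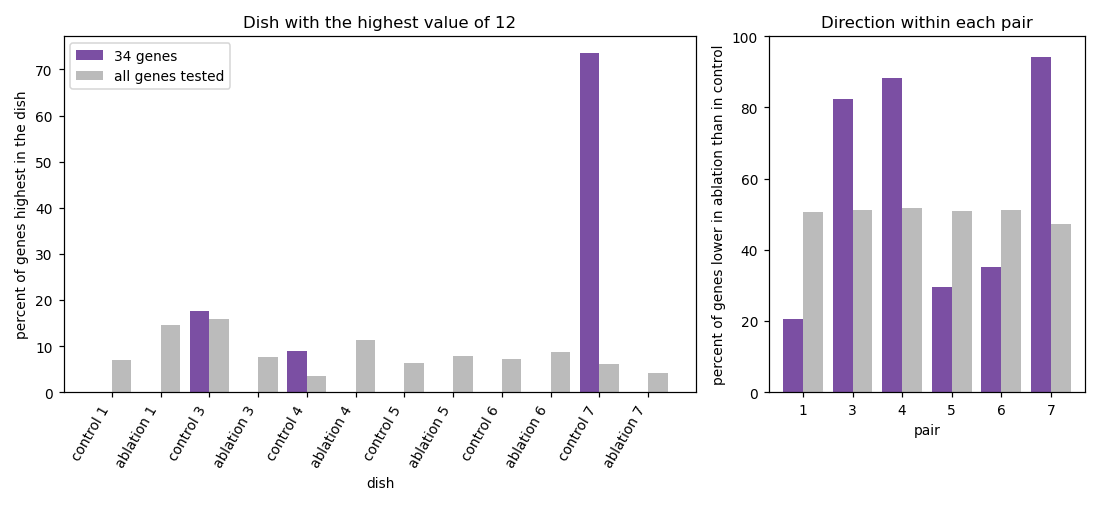
Left, percent of the 34 genes (purple) and of all 13792 genes tested (grey) whose highest value of 12 fell in each dish. Right, percent of genes lower in the ablation than in the control dish of each pair; control 7 held the highest value of 25 of the 34 genes, and 32 of 34 were lower after ablation in pair 7 against 7 of 34 in pair 1.

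The genes were transcribed although interferon transcripts were at or near 0. Of 10 interferon genes, 8 (Ifna1, Ifna2, Ifna4, Ifna5, Ifnb1, Ifnk, Ifnl3 and Ifng) had no count in any dish. The other two, Ifnl2 and Ifne, did not exceed 1.02 and 1.01 normalized counts in any dish. A count of 0 allows up to 3 reads of the 23631212 in the shallowest dish, and such floors and intervals cover counting error only. The receptors and their kinases were all detected, Ifnar1 with a mean of 1552 normalized counts, Ifngr1 with 2634 and the kinase Jak1 with 5454.

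Per kilobase of exon, levels of the 34 genes spanned from 5.39 normalized counts for Cmpk2 to 15289 for Ifitm3 (means over 12 dishes). Ifitm3, which blocks virus entry at membranes, stood above 99.6% of the genes tested per length. It was followed by Ifi27, a mitochondrial interferon-induced protein, with 833 per kilobase, Ifi35 with 647, the secreted glycoprotein gene Lgals3bp with 538 and the ubiquitin-like modifier Isg15 with 366. Per length, 10 of the 34 lay above the median of the genes tested and 24 below it, and Rsad2, Cmpk2 and Trim30a were among the lowest with 5.60, 5.39 and 10.5 per kilobase.

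**Figure D2:**
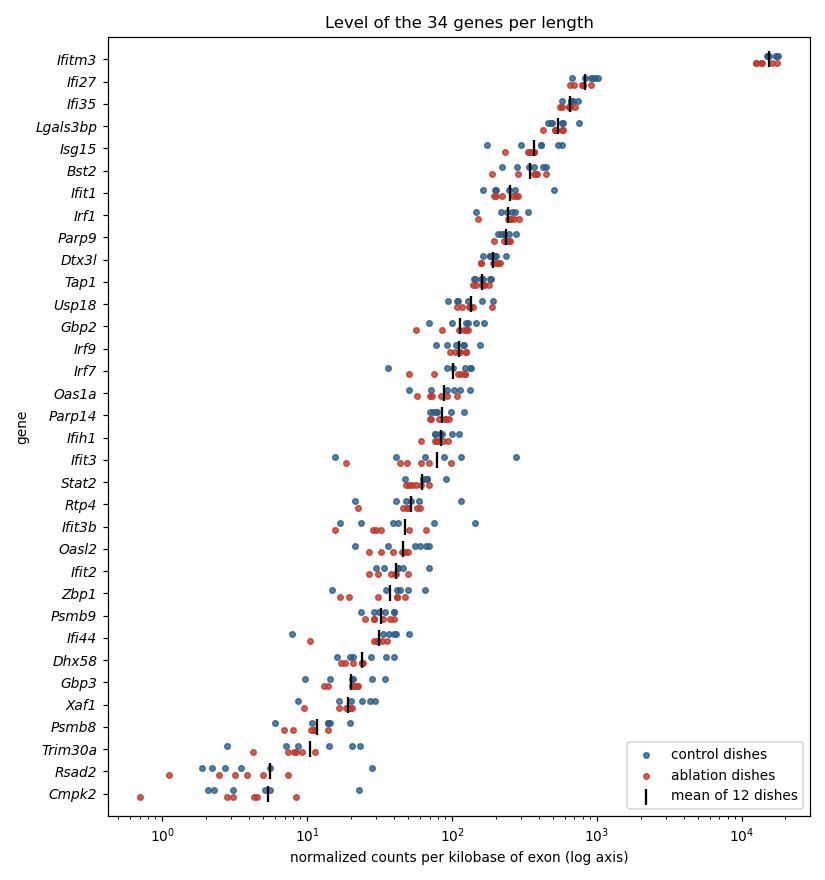
Normalized counts per kilobase of exon (log axis) of the 34 genes in the 6 control dishes (blue) and 6 ablation dishes (red), with the mean of 12 dishes as a black bar. Levels spanned from 5.39 for Cmpk2 to 15289 for Ifitm3, and the points of the 2 groups overlapped for all 34 genes.

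Promoters of the genes are shown because the ISRE is the element through which the family is known to be induced. The RefSeq table of promoters (build GRCm38.p6, 250 bases before to 50 after each start) held 27 of the 34 genes. The ISRE core, spelled GAAA, any 2 bases and GAAA, and searched on both strands with overlapping matches allowed, was found in 13 of these 27 genes (48.1%), while 3.99% of 27025 genes and 3.44% of 32851 promoters in the table held it. These were Ifit1, Ifit3, Ifit3b, Isg15, Stat2, Oas1a, Rsad2, Bst2, Ifih1, Gbp2, Gbp3, Ifitm3 and Trim30a. The GAS motif TTCNNNGAA, a palindrome, was found in 7 of 27 (25.9%), namely Ifit2, Irf1, Oas1a, Bst2, Ifi35, Psmb8 and Ifitm3, against 9.55% of all genes. Matches are a description of letters and not of binding. The windows below run from 20 bases before the first ISRE core to 20 bases after the last one upstream of the start, 5′ to 3′ on the strand of the gene, with the core in capitals. They belong to 4 of the 6 genes that were over 1.5 times the next dish in control 7, to Isg15, and to Gbp2, which had the smallest adjusted p of the 34 between passages.
Ifit1 (chr19:34640765-34640833, plus strand): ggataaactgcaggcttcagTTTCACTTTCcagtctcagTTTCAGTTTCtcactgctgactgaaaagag
Ifit3 (chr19:34583353-34583436, plus strand): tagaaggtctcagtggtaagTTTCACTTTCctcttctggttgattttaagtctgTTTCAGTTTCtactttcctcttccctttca
Ifit3b (chr19:34607749-34607832, plus strand): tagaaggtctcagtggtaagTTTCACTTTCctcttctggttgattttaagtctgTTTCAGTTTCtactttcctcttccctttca
Rsad2 (chr12:26456543-26456592, minus strand): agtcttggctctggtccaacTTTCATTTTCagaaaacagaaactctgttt
Isg15 (chr4:156200855-156200916, minus strand): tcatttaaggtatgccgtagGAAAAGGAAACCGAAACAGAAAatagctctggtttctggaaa
Gbp2 (chr3:142620584-142620633, plus strand): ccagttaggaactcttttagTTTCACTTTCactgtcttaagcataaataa
The 84-base windows of Ifit3 and Ifit3b were identical in all 84 bases, and both held the same pair of cores as Ifit1, at 34 bases from start to start in place of 19. Isg15 held 3 overlapping cores. No ISRE core was found in the promoter of Cmpk2, and Rtp4 was not in the table.

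Among the transcription factors of the pathway, Irf7, the interferon-induced master factor of type I interferon genes, ranged from 137 to 510 (510.3) normalized counts in control dishes with a median of 426, and from 191 to 468 in ablation dishes with a median of 424. Irf9, the DNA-binding subunit of the ISGF3 complex, ranged from 421 to 835 with a median of 609.6 in control and from 523 to 673 with a median of 609 in ablation dishes. Its partner Stat2 ranged from 280.5 to 539 with a median of 395 in control and from 284 to 414 with a median of 324 in ablation dishes. Irf1, a factor of interferon gamma responses, had medians of 991 in control and 1006 in ablation dishes and ranged from 578 to 1337 over all of them. The groups overlapped for all of them, as they did for all 34 genes, and a lack of overlap was seen for 0.457% of the genes tested. Control 1 was the lowest dish for Irf7 and Irf9, while Irf1 was lowest in both dishes of pair 3.

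The sensors of nucleic acids likewise overlapped between groups. Ifih1, which encodes the RNA sensor MDA5, ranged from 621 to 908 in control dishes (median 681) and from 499 to 764 in ablation dishes (median 645). Dhx58, which encodes the related LGP2, ranged from 52.7 to 130.0 (median 79.2) and from 56.5 to 79.9 (median 72.7). Zbp1, a sensor of Z-form nucleic acids that can start necroptosis, ranged from 52.1 to 231 (median 150.5) and from 59.5 to 168 (median 128). The highest dish was control 7 for Ifih1 and Zbp1 and control 3 for Dhx58. In the ISG15 system, Isg15 ranged from 123 to 401 in control (median 289) and from 164 to 258 in ablation dishes (median 243). The deconjugating protease Usp18 ranged from 262 to 532 (median 336) and from 304 to 524 (median 367). Usp18 was lower in the ablation dish of 1 pair only, and no other of the 34 genes was higher in 5 pairs or more (17.9% of all genes tested).

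The IFIT genes encode proteins that bind foreign RNA and lie side by side on chromosome 19, from Ifit2 at 34550694 to the end of Ifit1 at 34650009 (GRCm38.p6). Ifit3 varied most between pairs of all 34 genes. It ranged from 27.0 to 485 normalized counts in control dishes (median 134) and from 32.2 to 173 in ablation dishes (median 95.4). The lowest dishes were both dishes of pair 1, and control 7 was 2.39 times the next dish, control 5. Ifit3b ranged from 33.8 to 289 in control (median 81.7) and from 31.2 to 131 in ablation dishes (median 62.1), again with pair 1 lowest and control 7 highest. Ifit1, the most abundant of the family per length, had 1335 in control 7 and lay between 432 and 758 in the other 11 dishes. Ifit2 differed from its neighbours, since its highest value of 274 was in control 3 and its lowest of 105 in ablation 7. In the transcript annotation, 41.1% of the 75-base stretches of Ifit3 also occur in Ifit3b, so reads may have been divided between both, and their values are uncertain to that extent.

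Rsad2 and Cmpk2 are neighbours on chromosome 12, with their 5′ ends facing each other across 12751 bases (Rsad2 ends at 26456452 and Cmpk2 starts at 26469204). Rsad2 encodes viperin, an antiviral enzyme, and Cmpk2 a mitochondrial nucleotide kinase. Rsad2 ranged from 8.19 to 123 normalized counts in control dishes (median 13.5) and from 4.87 to 32.0 in ablation dishes (median 15.3). Cmpk2 ranged from 8.69 to 94.6 in control (median 17.2) and from 2.92 to 35.0 in ablation dishes (median 15.35). For both genes, pair 7 held the highest dish, control 7, and the lowest dish, ablation 7. The ratio of control 7 to ablation 7 was 25.2 for Rsad2 (105 reads against 5, exact 95% counting interval 10.5 to 79.2) and 32.4 for Cmpk2 (81 reads against 3, 10.7 to 160.4). Among the other 11 dishes, ablation 3 was highest for both. Oas1a, which encodes a synthetase activated by double-stranded RNA, and the related Oasl2 had medians of 184 and 368 in control and of 148 and 268 in ablation dishes. Over all dishes they ranged from 94.6 to 249.7 and from 136 to 442, and both were lowest in control 1. Oas1a shares 47.6% of its 75-base stretches with Oas1g and is uncertain for the same reason as Ifit3.

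**Figure D3:**
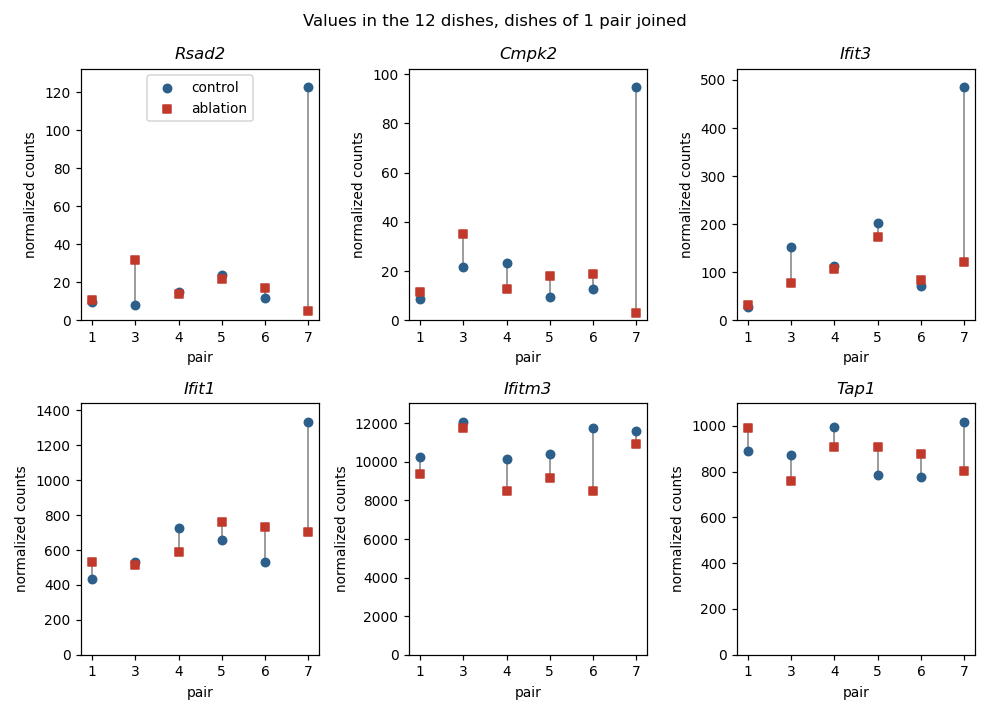
Normalized counts of 6 genes in the 12 dishes (blue circles, control; red squares, ablation), with the dishes of 1 pair joined by a line and the axis starting at 0. Rsad2, Cmpk2, Ifit3 and Ifit1 were highest in control 7, Ifitm3 was lower in the ablation dish of all 6 pairs, and Tap1 stayed between 760.3 and 1019.

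The membrane factors were abundant. Ifitm3 ranged from 10146 to 12088 normalized counts in control dishes (median 10991) and from 8471 to 11778 in ablation dishes (median 9267). It was the only one of the 34 genes to be lower in the ablation dish of all 6 pairs, which held for 4.63% of all genes tested. Bst2, which encodes tetherin, a protein that holds budding virus at the cell surface, had medians of 321 and 337 and was lowest in pair 1. The interferon-induced GTPases Gbp2 and Gbp3 had medians of 318 and 67.2 in control and of 294 and 68.2 in ablation dishes. Gbp2 ranged from 143 to 421 over the 12 dishes and was lowest in ablation 3, and Gbp3 ranged from 31.8 to 112 and was lowest in control 1.

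Parp9, Dtx3l and Parp14 encode PARP family proteins (Parp9 and Parp14) and a ubiquitin ligase (Dtx3l) that act in interferon signalling and DNA repair, and Parp9 and Dtx3l form a complex and share a bidirectional start, where 458 exon bases overlap on opposite strands. They were among the steadier genes. Parp9 lay between 1010.4 and 1347 in control dishes (median 1109) and between 948 and 1234 in ablation dishes (median 1174), with medians of 1084 and 1126 for Dtx3l and of 729 and 798 for Parp14. Over all dishes Dtx3l ranged from 901 to 1342 and Parp14 from 653 to 1122, and control 7 was highest for all of them. Libraries were stranded, but whether counting used the strand is not given in the sources used here.

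The antigen processing genes Psmb8, Psmb9 and Tap1 lie together on chromosome 17, between 34181987 and 34201454. Tap1, which encodes 1 subunit of the peptide transporter into the endoplasmic reticulum, had the smallest range of pair means of all 34 genes, 1.17-fold, and ranged from 776 to 1019 in control (median 882) and from 760.3 to 989 in ablation dishes (median 891). Psmb8 and Psmb9 encode catalytic subunits of the immunoproteasome. Psmb8 ranged from 20.3 to 67.4 in control (median 47.0) and from 23.4 to 46.9 in ablation dishes (median 36.8), and Psmb9 from 86.9 to 146 (median 121) and from 91.9 to 145 (median 114). Both were lowest in control 1 and highest in control 4. Per kilobase, Psmb8 reached 11.7 and Psmb9 32.6 normalized counts, while the constitutive subunits Psmb5, Psmb6 and Psmb7 reached 3919.9, 2608 and 1683.

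Among the remaining genes, Ifi44 and Trim30a were lowest in pair 1. Ifi44 had 48.3 normalized counts in control 1 and 64.3 in ablation 1, against 179 to 308 in the other 10 dishes. Trim30a, which encodes a TRIM protein that dampens Toll-like receptor signalling, ranged from 11.6 to 95.8 in control (median 47.0) and from 17.5 to 46.9 in ablation dishes (median 34.1). Rtp4, which encodes a receptor transporter protein, had 247 in control 7 and lay between 45.4 and 129 in the other 11 dishes. Xaf1, which promotes apoptosis, ranged from 40.5 to 139 in control (median 103) and from 44.8 to 96.0 in ablation dishes (median 89.6). Lgals3bp ranged from 1307 to 2132 (median 1517) and from 1201 to 1669.5 (median 1468), with its highest dish in control 3. Rtp4 shares 13.9% of its exon bases with the predicted gene Gm45338 on the same strand, and its values are uncertain to that extent. Ifi27 ranged from 987 to 1484 in control (median 1356) and from 953 to 1338 in ablation dishes (median 1168), and Ifi35 had medians of 1154 and 1110.2 and ranged from 956 to 1284 over all dishes.

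**Figure D4:**
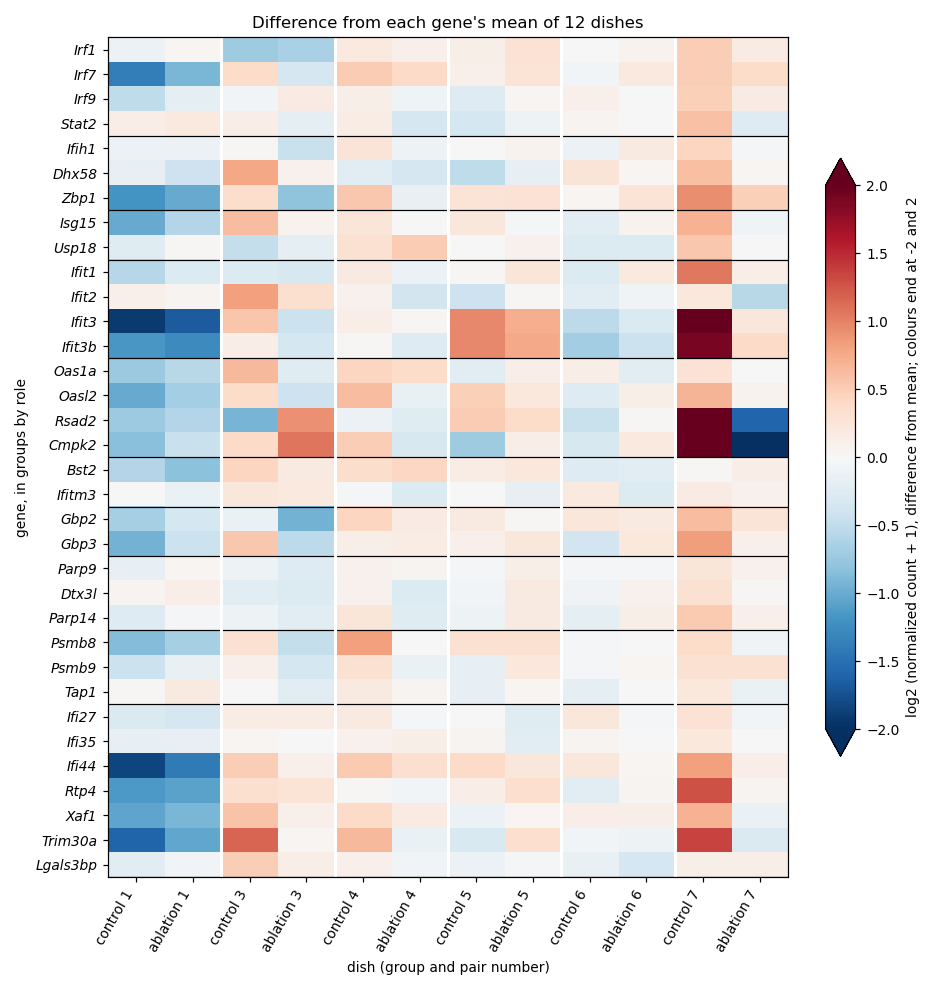
Difference of each gene's log2 (normalized count + 1) from its mean over 12 dishes, in rows grouped by role and columns by pair (colours end at -2 and 2). Control 7 was highest for 25 of 34 genes, and the dishes of pair 1 were low for Ifi44, Ifit3 and Trim30a.

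The pairs differed more in these genes than in most others. The range of the 6 pair means had a median of 1.01 (log2) over the 34 genes and of 0.38 over all genes tested, and its extremes were 0.22 for Tap1 and 3.00 for Ifit3. The spread between control dishes (median SD of 0.48 against 0.16 for all genes) was wider than that between ablation dishes (0.32 against 0.17), and its median was 0.45 without control 7. Pair 1 had the lowest pair mean for 21 of the 34 genes, against 23.1% of all genes tested, and pair 7 the highest for 17, against 11.5% of all genes tested. Pair 1 also had the highest pair mean of some epithelial markers, with 13724 normalized counts for the basal keratin Krt15 (3792 to 8999 in the other pairs), 42039 for Krt13 (23682 to 30345), 15799 for Krt4 (7054 to 9377), 72374 for the club cell gene Cyp2f2 (28626 to 53523) and 63817 for Aqp3 (42265 to 47705). Krt5, Ngfr, Lypd2 and Scgb3a2 were also highest in pair 1. Other markers of the same cell types were not. The club and secretory genes Ltf (16881, against 26538 to 40508 in the other pairs) and Scgb3a1 (42.1, against 54.6 to 124) were lowest in pair 1. So were Krt6a, Ivl and Ecm1, listed with Krt13 and Krt4 as hillock and squamous-like markers. Muc5b, Trp63, Dlk2 and Pdpn were highest in pair 3 and Itga6 in pair 7. Krt14, the other abundant basal keratin, and Sprr1a were highest in pair 5. The part of these markers in the levels of the 34 genes was not tested. The pair means of Ifit3 were 29.5, 109, 110, 187, 78.3 and 243 in pairs 1, 3, 4, 5, 6 and 7, and those of Irf7 were 162, 364, 489, 410, 379 and 485. Pair 1 was the lowest for both. Irf1 had its lowest pair mean in pair 3, at 589.7, against 921 to 1191 elsewhere. The pair means of Zbp1 were 55.7 in pair 1, 103 in pair 3, 139 in pair 4, 147 in pair 5, 135 in pair 6 and 197 in pair 7.

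The question of the study was which transcripts change 4.5 h after local cell loss. None of the 34 genes passed an adjusted p of 0.05 for ablation against control in limma with library set as second factor, where 0% of the 13792 genes tested passed and 1083 had an unadjusted p below 0.05, among them Ifitm3 as the only one of the 34. On the recovered reads of 9 dishes, DESeq2 called 11 genes and edgeR 0, and none of the 34 was among them. In the model with the pair as a block, 150 genes, or 1.09%, passed, but none of the 34. Ifitm3 was lower after ablation by a log2 difference of -0.19 ± 0.09 (SE, unadjusted p = 0.0412, adjusted p = 0.629 with limma), and Ifi27 by -0.19 ± 0.09 (unadjusted p = 0.0522, adjusted p = 0.632). With pairs as a block, their adjusted p were 0.0846 and 0.0914 with limma. Ifi27 was lower in 5 of 6 pairs. The largest estimates were -0.50 ± 0.60 for Cmpk2, -0.47 ± 0.56 for Ifit3, -0.39 ± 0.42 for Trim30a and -0.39 ± 0.47 for Ifit3b. Rsad2 followed at -0.37 ± 0.60 and Zbp1 at -0.31 ± 0.29, and each 95% interval held 0. These errors and intervals are those of limma with library set, which leaves the pairing out. The estimates depended on single pairs. Without pair 7, the estimates were 0.32 for Cmpk2, 0.44 for Rsad2, -0.17 for Ifit3, -0.16 for Ifit3b and -0.15 for Trim30a, and without pair 3, that of Zbp1 was -0.14 and that of Trim30a -0.25, while Rsad2 moved to -0.81. For Parp9, at 0.00 ± 0.07, the interval ran from -0.15 to 0.16.

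**Figure D5:**
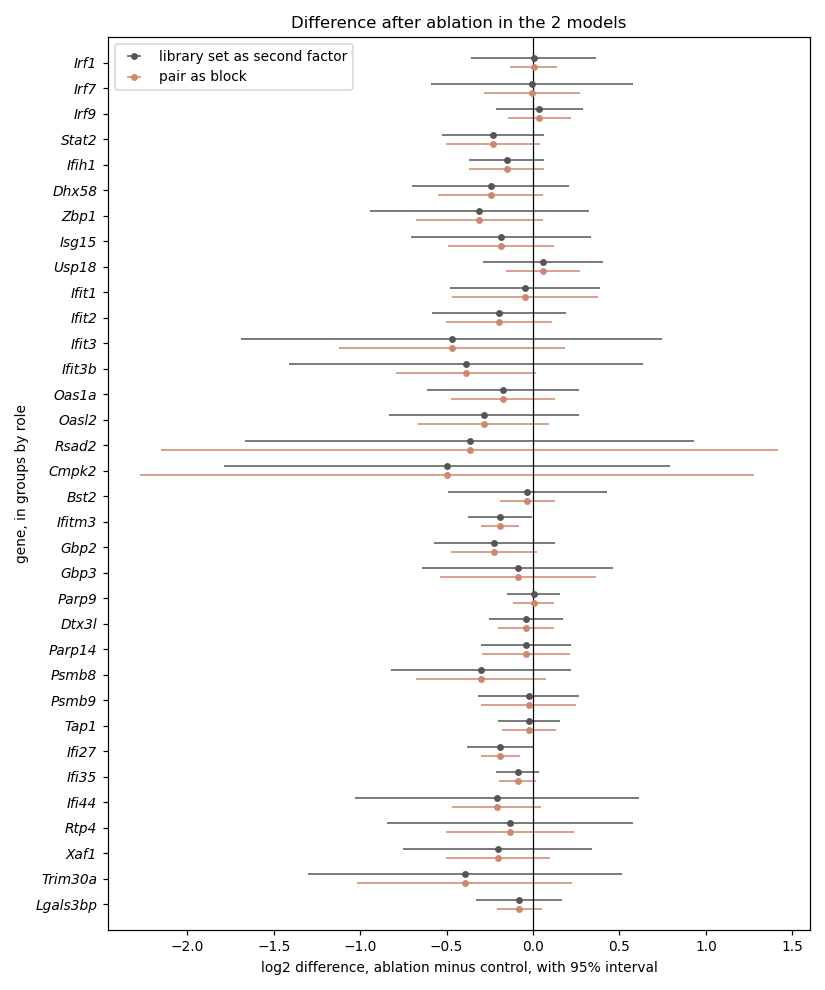
Log2 difference, ablation minus control, of the 34 genes with 95% intervals from limma, with library set as second factor (grey) or pair as a block (orange). Most estimates lay below 0, and the intervals were widest for Rsad2 and Cmpk2.

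Taken by direction, 30 of the 34 genes were lower after ablation, against 51.5% of all genes tested, with a median of -0.18 (log2) against 0.00. By role, all 4 IFIT genes (median -0.29), all 4 of Oas1a, Oasl2, Rsad2 and Cmpk2 (median -0.33) and all 3 sensors (median -0.25) were lower, and 2 of the 4 transcription factors (median -0.00). Without pair 7, 3 of 4 IFIT genes (median -0.12), 2 of Oas1a, Oasl2, Rsad2 and Cmpk2 (median 0.086), 3 of 3 sensors (median -0.19) and 1 of 4 transcription factors (median 0.042) were lower. Without control 7 alone, it was 3 of 4 (median -0.072), 3 of 4 (median -0.092), 3 of 3 (median -0.16) and 1 of 4 (median 0.052). Of the antigen processing genes, 3 of 3 were lower with a median of -0.026, with 1 of 3 without control 7 (median 0.0078) and 2 of 3 without pair 7 (median -0.032). Of Parp9, Dtx3l and Parp14, 2 of 3 were lower, and 0 without control 7 or without pair 7. Of Isg15 and Usp18, 1 was lower under each of these settings. Both membrane factors were lower under each of them, and both guanylate-binding protein genes with all dishes but 1 of them without control 7 or pair 7. The remaining 7 genes were all lower with all dishes, and 6 of 7 without control 7 or without pair 7. The direction was not shared by the pairs. In pairs 3, 4 and 7, 28, 30 and 32 of 34 genes were lower in the ablation dish, with medians of -0.37, -0.22 and -0.46. In pairs 1, 5 and 6, it was 7, 10 and 12 of 34, with medians of 0.19, 0.14 and 0.06. The number lower in at least 5 of 6 pairs was 7, near the share of 18.4% over all genes. Within library set 1, with pairs as a block, 21 of 34 were lower (median -0.045), and within set 2, 32 of 34 (median -0.24). With 1 pair left out, from 21 (without pair 7) to 33 (without pair 5) of 34 genes were lower. Without control 7, 21 of 34 genes were lower and the median was -0.06. Without controls 3 and 7, chosen after seeing that they were high for these genes, 11 were lower and the median was 0.04. Leaving out high controls raises the difference by itself, so no conclusion on direction is drawn from this. The sum of the leukocyte markers was highest in control 7 (379.7) and reached 366 in ablation 6. The 34 genes lay 0.74 (log2, mean over genes) from their mean over all dishes in control 7 and -0.00075 in ablation 6. The part of the leukocyte markers in the result was not tested. Of club and secretory cell markers, 6 of 6 tested were lower after ablation (median -0.18). The 4 tested leukocyte markers were lower too (Ptprc at -0.52, Lyz2 at -0.23, Itgam at -0.12 and Cd68 at -0.05). So were the 2 tested multiciliated cell markers (Cfap126 at -0.42 and Tubb4b at -0.12). Basal cell markers went both ways, with Krt15 at -0.27 and Trp63 at 0.39. None of these markers passed in limma with library set as second factor, which called 0% of all genes tested. In the study's own DESeq2 comparison, the paper reports Trp63 as significantly raised after ablation. The part of these markers was not tested either. Control 7 was also the shallowest of the 9 libraries with recovered reads, and a part of depth in the result was not tested.

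Time in culture was compared over pair means, with the late pairs 3, 6 and 7 (day 18 or later) against the early pairs 1, 4 and 5. None of the 34 genes passed in limma, nor did any gene tested (0%), and 624 genes had an unadjusted p below 0.05. Of the 34, 29 were higher in late pairs (50.8% of all genes tested), with a median of 0.19, and Dhx58, Irf9, Ifi27 and Ifitm3 had an unadjusted p below 0.05. Dhx58, named after its values were seen, had pair means of 102, 84.2 and 94.4 in pairs 3, 6 and 7 and of 61.8, 61.8 and 59.7 in pairs 1, 4 and 5. All 3 late pairs lay above all 3 early ones, which was the case for 4 of the 34 genes (with Irf9, Ifi27 and Ifitm3) and for 4.39% of all genes tested, and the log2 difference was 0.60 ± 0.15 (unadjusted p = 0.0032, adjusted p = 0.994 with limma). Without pair 1, 17 of 34 genes were higher in late pairs and the median was -0.0033. Without pair 7, 22 were higher with a median of 0.086, and without control 7 alone, 24 with a median of 0.0997. In control dishes alone, 30 of 34 were higher with a median of 0.29, and in ablation dishes alone, 20 with a median of 0.043. Of cell type markers, 6 of 9 basal cell markers were lower in late pairs, with Aqp3 at -0.27 ± 0.12 and lower in all 3 late than in all 3 early pairs, and 2 of 2 tested multiciliated cell markers were higher, with Cfap126 at 0.57 ± 0.23 and higher in all 3 late pairs. Of 6 tested club and secretory cell markers 3 were higher, and of 4 leukocyte markers 3. None passed in limma, and their part was not tested.

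For passage, pairs 6 and 7 (P2+16) were compared with pairs 1 and 3 (P2+14), which were in different library sets throughout, so passage and library set cannot be told apart here. In limma, 9 genes, or 0.0653%, passed, none of them among the 34. Of the 34, 30 were higher at P2+16 (49.2% of all genes tested), with a median of 0.34, which was 0.18 with 27 higher when control 7 was left out. The median was 0.14 without pair 1, 0.66 without pair 3 and 0.18 without pair 7. Markers of cell types differed along with these genes, though none passed in limma. Of 9 basal cell markers 8 were lower at P2+16, with Krt15 at -1.45 ± 0.19 (adjusted p = 0.0869) and Krt5 at -0.39 ± 0.09 (adjusted p = 0.143). Of 6 tested club and secretory cell markers 4 were higher, with Scgb3a1 at 1.12 and Ltf at 0.90, and of 4 tested leukocyte markers 3 were higher, with Itgam at 1.23 ± 0.18 (adjusted p = 0.0869) and Lyz2, the exception, at -1.18. Their part in the result was not tested. Gbp2, named after its values were seen, had pair means of 193 and 190 (189.7) at P2+14, 337 and 296 at P2+15 and 318 and 371 at P2+16. The P2+14 pairs lay below all others, and the log2 difference was 0.84 ± 0.13 (unadjusted p = 0.00034, adjusted p = 0.0869 with limma). With the filter on low values removed, Gbp2 passed with an adjusted p of 0.00877 in limma, as did 220 of 28534 genes (0.771%). Zbp1 differed by 1.10 ± 0.31 (adjusted p = 0.226 with limma).

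Single pairs decided how many genes were called between passages. Without pair 1, limma called 404 genes (2.93%), among them Gbp2 and Irf1, which were higher at P2+16, and Ifit2, which was lower. Without pair 3, it called 505 genes (3.66%), among them 8 of the 34, namely Ifi44, Irf7, Zbp1, Xaf1, Gbp2, Oasl2, Isg15 and Trim30a, all higher. In both cases the lone P2+14 pair was assumed to vary like the other passages. Without pair 4, 5, 6 or 7, no gene was called. For library set 2 against set 1, 0% of genes tested and none of the 34 passed, 1293 genes had an unadjusted p below 0.05, and 31 of 34 were higher in set 2 (49.2% of all genes tested), with a median of 0.26. Without pair 1, 23 were higher with a median of 0.084, without pair 7, 27 with a median of 0.15, and without control 7 alone, 27 with a median of 0.17. The median was 0.39 in control dishes alone and 0.17 in ablation dishes alone. Of cell type markers, 2 of 4 tested leukocyte, 4 of 6 club and secretory and 2 of 9 basal cell markers were higher in set 2. Within the leukocyte list, Itgam was at 0.95 and Lyz2 at -0.88. None passed, and their part was not tested.

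Whether the response to ablation differed with time or library set was tested as an interaction, with pairs as a block. Time was again partly confounded with passage. Between late and early pairs, 0% of genes tested passed in limma and 803 had an unadjusted p below 0.05. The response of 33 of the 34 genes was lower in late pairs (47.7% of all genes tested), with a median of -0.28. With 23 genes lower, the median was -0.098 without pair 7, and it was -0.16 without pair 1, -0.44 without pair 4 and -0.54 without pair 6. The smallest p of the 34 was that of Oas1a, with a difference of -0.67 ± 0.21 (unadjusted p = 0.0081, adjusted p = 0.812 with limma). Between library sets, 1 gene tested passed (0.00725%), which was not among the 34. The response of 29 of the 34 was lower in set 2 (48.5% of all genes tested), with a median of -0.21. The median was -0.11 without pair 1, -0.36 without pair 3, -0.38 without pair 6 and -0.079 without pair 7, where 21 were lower. The smallest adjusted p of the 34 was 0.267 for Irf9 with limma, at -0.48 ± 0.10.

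Other genes of the pathway gave no call in a model that called 0% of all genes tested, nor with pairs as a block, which called 1.09%. Of 66 further interferon-stimulated genes, 54 were tested, 45 were lower after ablation (40 without control 7 and 38 without pair 7) and none passed in limma, with 3 at an unadjusted p below 0.05. Their most abundant gene, Ly6e, a GPI-anchored protein that restricts virus fusion, ranged from 26372 to 28478 in control and from 22500.5 to 28444 in ablation dishes, was lower in all 6 ablation dishes than in their controls, and differed by -0.15 ± 0.05 (adjusted p = 0.570 with limma). Among 19 genes of MHC class I and peptide loading, 14 were lower (10 without control 7 and 14 without pair 7), 5 were higher, and none passed, and the summed list ranged from 79735 in control 1 to 98008 in ablation 4. The most abundant genes of this list by counts, Pdia3 and Calr, are chaperones of the peptide-loading complex, with means of 17041 and 15550. Per kilobase, the class I light chain B2m reached 6615 and the heavy chains H2-K1 and H2-D1 reached 3551 and 4411 normalized counts. None of the 9 receptors and kinases, 8 tested transcription factors, 14 tested nucleic acid sensing genes, 8 negative regulators (Isg15, Usp18 and Trim30a among them) or 5 tested MHC class II genes passed for ablation, with 4, 5, 9, 5 and 2 lower. For P2+16 against P2+14, 41 of the 54 further interferon-stimulated genes were higher (median 0.31), and none passed, against 0.0653% of all genes tested. Without control 7, 40 were higher (median 0.18), and without pair 7, 39 (median 0.17). Of the 19 class I and peptide loading genes, 17 were higher (median 0.17) and none passed, with 17 higher without control 7 (median 0.15) and 15 without pair 7 (median 0.094).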

How the data were processed

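Poly(A) RNA was sequenced in 12 stranded libraries, and the authors aligned and counted reads with nf-core/rnaseq on GENCODE GRCm38.p6 and divided each count by a DESeq2 size factor, so the deposited signal is a normalized count per gene. The deposited columns of the authors' own comparison (mean, fold change, its error, statistic and p-values) were not used. The 34 genes and the lists were chosen with earlier results of these data known.

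Values were tested with limma 3.58.1 in R 4.3.3 on log2(value + 1), which understates changes of low genes, in 13792 genes that reached 10 normalized counts in 6 libraries or more, with Benjamini-Hochberg adjustment over all of them and a threshold of 0.05. The study's batch factor is not named, and library set stood in for it. Passage, day and library set were tested over pair means. Pairs were also fitted as a block. They were taken as pairs because passage, day and date agreed in the labels and because the deviations of paired dishes from the group means correlated (r = 0.205 to 0.618 over 13792 genes). Whole reads were recovered from the smallest step between the values of a library. In all libraries, 100% of the low values checked lay within 0.1 of whole steps. In 3 libraries the step was too near 1, so their reads were not taken as recovered. The other 9 were tested with edgeR 4.0.16 and DESeq2 1.42.0. The steps were tested on simulated data. Named genes were those past the threshold, 6 with the largest and 3 with the smallest range of pair means, the 3 most abundant and 6 with the largest ablation estimate, and further genes were named after their values were seen. Protein identity was not analysed here.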

Additional observations from a re-analysis of the deposited data

Results flagged for a closer look

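In 7 of 68 groups of 6 dishes, 1 dish lay apart from the other 5 by Dixon's test, and chance alone marks about 1 in 20 groups. Control 7 was the high dish in 3 of them, at 1335 normalized counts for Ifit1 (next control 724), 123 for Rsad2 (next 23.9) and 94.6 for Cmpk2 (next 23.2). Ablation 1 was the low dish in a further 3, at 164 for Isg15 (next ablation dish 235), 64.3 for Ifi44 (next 179) and 44.8 for Xaf1 (next 77.9). Its control dish was low for the same genes. Ablation 3 was the low dish for Irf1, at 601 (next 973), and control 3 was low as well, at 578. The ratio of control 7 to ablation 7 was 3.99 for Ifit3 (exact 95% counting interval 3.26 to 4.91) and 1.89 for Ifit1 (1.72 to 2.08), which covers counting error and not the spread between dishes.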

How the results depend on the processing

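No member was called for ablation under any alternative run. With the pair as a replicate block, 150 genes were called (8 to 176 with 1 pair left out), and the block changed no call of a member. Other counts of genes called for ablation were 3 with all genes of any count, 11 with DESeq2 and 0 with edgeR on the recovered reads, and 16 and 109 within library sets 1 and 2 with the block. Leaving out 1 pair or 1 dish, 21 to 33 members were lower, with medians from -0.21 to -0.06. Without controls 3 and 7, a choice made after seeing the data, 11 were lower, with a median of 0.037, and the estimates turned to 0.10 for Ifit3, 0.023 for Ifit3b, 0.067 for Ifi44, 0.13 for Trim30a, 0.23 for Rtp4, 0.022 for Tap1, 0.052 for Lgals3bp, 0.091 for Cmpk2 and 0.012 for Rsad2. Within library set 1 with the block they turned to 0.027 for Trim30a, 0.079 for Rtp4, 0.052 for Tap1, 0.63 for Cmpk2 and 0.61 for Rsad2, and within set 2 to -0.060 for Parp9. Tap1 turned to 0.041 with edgeR and 0.045 with DESeq2. Estimates with 1 pair or dish left out ran from -0.21 to 0.094 for Rtp4, -0.070 to 0.040 for Tap1, -0.036 to 0.043 for Parp9, -0.77 to 0.32 for Cmpk2 and -0.81 to 0.44 for Rsad2. In all, 264 of 291 estimates of 14 named genes kept their direction and 27 turned. The causes were not tested.

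For late against early pairs, 2 genes were called with the pair as a random effect, 1 with library set as a term and 3 with all genes of any count, and 17 to 30 members were higher (median -0.0033 to 0.28) with 1 pair left out. Between passages, 1 gene was called in ablation dishes alone, 5 as a slope over passages and 220, with 1 member, with all genes of any count, and 0 to 505 genes and 0 to 8 members were called (median 0.14 to 0.66) with 1 pair left out. Between library sets, 3 genes were called with all genes of any count. For the difference of the response between library sets, 0 to 7 were called with 1 pair left out. Control 7 was highest for 24 members with quantile normalization and for 25 with TMM factors. At this depth, Rsad2 and Cmpk2 rested on 5 and 3 reads in ablation 7.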
